A study of Mus musculus with 6 samples.

Results

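The genes described here are 34 genes of glycolysis and of the transport of its substrate and end product, out of 23229 annotated genes in the count tables. They were chosen by symbol: 8 isozymes of the germ cell (Gapdhs, Ldhc, Pgk2, Pgam2, Eno4, Aldoart1, Aldoart2 and Ldhal6b) were set beside 26 other members, which are the isozymes that somatic tissues use, enzymes with no germ cell counterpart among the members, and transporters of glucose and lactate. All 34 had a row in each count table and in the table of RPKM values (reads per kilobase of transcript, scaled to the size of the library). The series measured RNA by sequencing in 2 preparations of sperm nuclei and in 1 preparation of whole sperm, each sequenced in 2 runs that share 1 column of counts. All sperm came from the cauda epididymis and vas deferens of mice 4 months old of the C57BL/6 transgenic line HP3.1, so every group carries that transgene, and the labels do not tie a preparation to particular animals. Nuclei were separated by sonication, which breaks tails from heads, and by centrifugation through sucrose and caesium chloride with the detergent Triton X-100, while whole sperm were extracted without those steps.

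Counts over genes and assembled regions came to 5487306 in nuclei 1 and 6648848 in nuclei 2, compared with 8316345 in whole sperm. The ribosomal RNA feature Rn45s took 42.5% of them in nuclei 1 and 33.3% in nuclei 2, compared with 43.4% in whole sperm. Every share of all counts given here includes it. Levels are given as CPM, counts scaled to library size after TMM correction in edgeR, and fold changes are nuclei over whole sperm. Whole sperm has 1 library, so the error behind a p-value is the difference between the nuclei preparations, taken over all genes together, and that difference may be technical. Where values for nuclei stand in pairs, nuclei 1 comes before nuclei 2. Markers of spermatids and sperm took 0.554% of counts in nuclei 1 and 0.555% in nuclei 2, compared with 0.328% in whole sperm. Markers of the epididymal epithelium, the duct lining in which sperm are stored, took 0.272% in nuclei 1 and 0.289% in nuclei 2, compared with 1.84% in whole sperm. A lower level in such bulk samples can come from fewer cells of a type or from less RNA per cell, and these cannot be told apart.

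Glycolysis converts glucose to pyruvate in the cytosol, and lactate dehydrogenase then converts pyruvate to lactate. Sperm run this pathway along the tail, where several of its enzymes are bound to the fibrous sheath, and it supplies ATP for motility. Spermatogenic cells replace or supplement somatic isozymes at several steps. Gapdhs, Ldhc and Pgk2 are the best known of these, and mouse males that lack the product of any of them have impaired sperm motility and reduced fertility. Mature sperm hardly transcribe, so their RNA is largely left from earlier stages of spermatogenesis.

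How far reads can tell a germ cell isozyme from its somatic counterpart depends on how much their sequences differ. In GENCODE vM21 (assembly GRCm38, which corresponds to mm10), the coding regions were identical at 72.3% of aligned bases for Gapdhs and Gapdh, 73.7% for Ldhc and Ldha, 72.3% for Ldhal6b and Ldha, 79.3% for Pgk2 and Pgk1, 74.7% for Pgam2 and Pgam1 and 60.9% for Eno4 and Eno1. The longest run of identical bases shared by these pairs was between 11 and 28 bases. The aldolase retrogenes were far closer to their parent: Aldoart1 was identical to Aldoa at 94.4% of coding bases, with a longest shared run of 86 bases, and Aldoart2 at 91.7%, with a longest shared run of 49 bases. The most similar 60-base coding windows of 4 pairs are shown because they mark the hardest stretches for assigning a read, with capitals for the bases that differ within a pair. Positions are counted from the first base of the start codon.
Gapdhs, coding bases 915 to 974: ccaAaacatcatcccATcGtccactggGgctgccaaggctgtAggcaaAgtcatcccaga
Gapdh, coding bases 603 to 662: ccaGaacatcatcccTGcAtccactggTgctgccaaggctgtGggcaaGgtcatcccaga
Ldhc, coding bases 550 to 609: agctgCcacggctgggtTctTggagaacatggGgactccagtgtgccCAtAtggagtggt
Ldha, coding bases 550 to 609: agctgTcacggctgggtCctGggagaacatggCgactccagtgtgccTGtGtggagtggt
Pgk2, coding bases 67 to 126: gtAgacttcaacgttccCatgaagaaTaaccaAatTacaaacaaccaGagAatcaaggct
Pgk1, coding bases 67 to 126: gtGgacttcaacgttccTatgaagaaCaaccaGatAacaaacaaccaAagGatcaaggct
Aldoart1, coding bases 460 to 519: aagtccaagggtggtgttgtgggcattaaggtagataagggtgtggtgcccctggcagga
Aldoa, coding bases 295 to 354: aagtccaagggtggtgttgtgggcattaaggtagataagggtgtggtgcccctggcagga
The first 3 pairs differ at 7 bases each even in these windows, so a read across one carries bases that assign it. The Aldoart1 and Aldoa window has 0 differences.

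Other near copies touch the somatic isozymes more than the germ cell ones. No run of 50 bases in the transcripts of Ldhc, Pgk2 or Pgam2 occurred in another annotated gene. In Gapdh every coding run of that length occurred in other annotated genes, of which 213 of 222 are pseudogenes, and the same held for every coding run of Pgk1 (5 pseudogenes) and Pgam1 (4 pseudogenes). Shared coding runs made up 52.9% in Pkm (7 pseudogenes and Gm49759), 35.6% in Ldhb (1 pseudogene) and 31.0% in Ldha (14 pseudogenes). The counts of Gapdh, Pgk1, Pgam1, Eno1, Aldoart1, Aldoa, Pkm, Ldhb and Ldha are therefore uncertain, and with them the shares of their steps. Gpi1 shared 40.9% of its coding runs with other annotations, which number 122 genes over its whole transcript, and its count is uncertain too. Whether counting used strand is not given in the sources used here, so reads from either of a pair of antisense genes cannot be told apart. This touches 15 of the 34 members, which overlap an annotated gene on the other strand. Of the germ cell isozymes these are Gapdhs, which overlaps Tmem147os and Gm26935, Eno4, which overlaps Hspa12a, and Ldhal6b, all of whose runs also lie in the antisense gene Gm29050 and which overlaps Tmem242 on its own strand. The others are Hk1, Hk2, Hk3, Gpi1, Pfkm, Pfkp, Aldoa, Tpi1, Gapdh, Pklr, Slc2a1 and Slc16a7.

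Of the 34 members, 32 had a count in at least 1 library: 27 in nuclei 1 and 28 in nuclei 2, compared with 31 in whole sperm. Hk3 and Pklr, the hexokinase of leukocytes and the pyruvate kinase of liver and red cells, had 0 counts in every library. A filter on low counts left 30 members for the test, all 8 germ cell isozymes and 22 of the 26 others; Aldoc and Eno2 were the other members not tested. At an adjusted p under 0.05 by edgeR's quasi-likelihood test, 0 members were higher in nuclei and 0 were lower. Over the 14397 annotated genes tested the same rule called 0.0278% higher and 0.111% lower, so few calls were made anywhere. At an unadjusted p under 0.05, 1 member was higher (Aldoart2) and 1 lower (Ldha), against 3.11% of genes higher and 2.33% lower. DESeq2 gave an adjusted p to 1115 annotated genes, 4 of them members (Gapdhs, Hk1, Gpi1 and Aldoa). It called Gpi1 higher in nuclei (log2 fold change 1.52 ± 0.51 SE, DESeq2 adjusted p = 0.024) and no member lower, where it called 17.8% of those genes higher and 3.41% lower. Adjusted over all features tested, the DESeq2 p of Gpi1 was 0.156. Scaling edgeR to the added spike-in RNAs put the median log2 fold change of all genes at -1.48, where TMM put it at -0.04. It called 2 members lower, Ldha and Slc2a3, where it called 3.66% of the 14397 annotated genes lower and 0.00695% higher. Under that scaling the fold changes of Aldoa, Gapdh, Pgam2, Pkm and Slc16a7 turned below 0, and those of Gapdhs and Gpi1 came to 0.11 ± 0.74 SE and 0.03 ± 0.68 SE, so neither lay above whole sperm by more than its standard error.

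Both nuclei libraries lay above whole sperm for 7 of the 30 tested members and below it for 17, and 6 were split. Over all genes tested, both lay above whole sperm for 26.1% and below it for 41.2%. Among the germ cell isozymes 2 lay above, 3 below and 3 were split, and among the other members 5 lay above, 14 below and 3 were split. The plot of levels by library shows the members' range in each group.

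**Figure D1:**
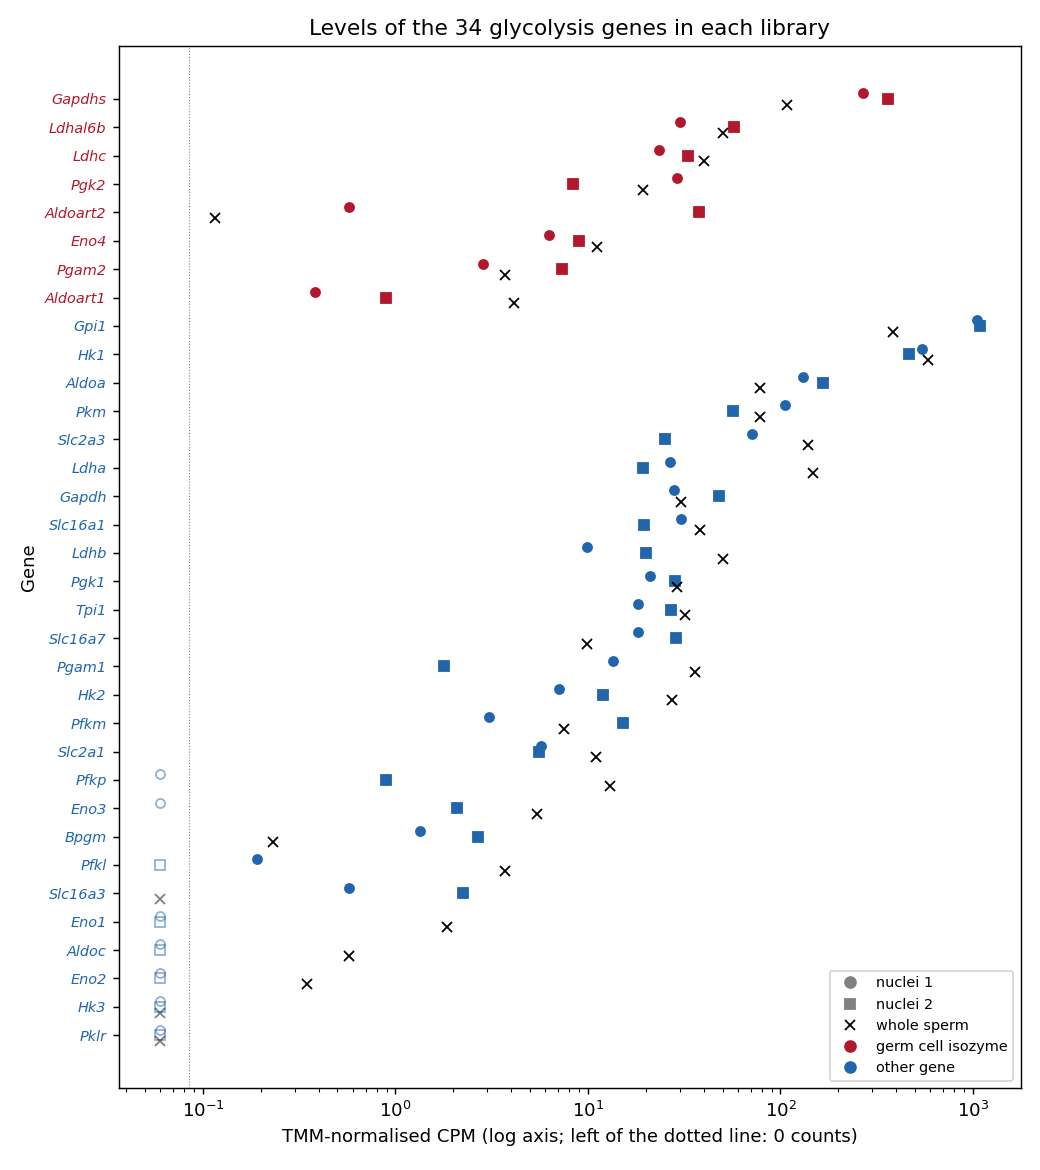
Levels of the 34 genes in TMM-normalised CPM on a log axis, 1 row per gene, with germ cell isozymes in red above the other genes in blue and ordered by mean level within each; circles are nuclei 1, squares nuclei 2 and crosses whole sperm, and open or faint marks left of the dotted line are libraries at 0 counts. Gapdhs and Gpi1 lie to the right of whole sperm in both nuclei libraries, and Ldha lies to the left of it.

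Glucose enters cells through facilitative transporters. Slc2a3 (GLUT3), the high-affinity transporter found in sperm and neurons, had 71.3 CPM in nuclei 1 and 25.2 CPM in nuclei 2, against 138 CPM in whole sperm (log2 fold change -1.52 ± 0.84 SE, edgeR adjusted p = 0.909). Both nuclei libraries were below whole sperm, and they differed from each other by 2.83-fold. Slc2a1 (GLUT1), the transporter of most growing cells, had 30 and 37 counts in nuclei, against 96 in whole sperm. By RPKM, Slc2a3 made up 90.3% of the 2 transporters in nuclei 1 and 71.9% in nuclei 2, compared with 87.8% in whole sperm.

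Hexokinase phosphorylates glucose and so holds it in the cell. Hk1, whose germ cell transcript forms encode the hexokinase of the sperm tail but are not separated in gene counts, was among the highest members with 545 CPM in nuclei 1 and 466 CPM in nuclei 2, against 584 CPM in whole sperm (log2 fold change -0.21 ± 0.73 SE, edgeR adjusted p = 1.00). The nuclei values were slightly below that of whole sperm, by less than the standard error of the fit. Hk2, the insulin-regulated hexokinase of muscle and fat, had 37 and 80 counts in nuclei, against 237 in whole sperm. Hk1 made up 99.3% of hexokinase RPKM in nuclei 1 and 98.7% in nuclei 2, compared with 97.4% in whole sperm, so 1 gene carried this step in each library.

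Gpi1 (chr7:34201330-34230336, minus strand) encodes glucose-6-phosphate isomerase, which makes fructose 6-phosphate and has no germ cell isozyme among the members. It was the highest member in nuclei, with 1047 CPM in nuclei 1 and 1081 CPM in nuclei 2, against 385 CPM in whole sperm. The nuclei libraries lay close together and 2.77-fold above whole sperm on average (log2 fold change 1.47 ± 0.82 SE, edgeR adjusted p = 0.909). By RPKM it also ranked first in both nuclei libraries, at 146 in nuclei 1 and 181 in nuclei 2, and came second in whole sperm at 81.2.

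Phosphofructokinase commits the sugar to glycolysis, and its subunits differed in where they were seen. Pfkm, the muscle subunit, which testis also expresses, had 16 and 102 counts in nuclei, against 65 in whole sperm. Pfkl, the liver subunit, had 1 and 0 counts in nuclei, against 32 in whole sperm, a ratio of 44.0 in favour of whole sperm with a counting interval of 7.35 to 1792 over both nuclei libraries, and of 19.4 (3.24 to 789) for nuclei 1 alone. Pfkp, the platelet subunit, had 0 and 6 counts in nuclei, against 113 in whole sperm. Pfkm therefore made up 85.6% of the step's RPKM in nuclei 1 and 89.3% in nuclei 2, compared with 25.8% in whole sperm. In counts, the share of Pfkm was 94.1% (exact 95% interval 71.3 to 99.9) in nuclei 1 and 94.4% (88.3 to 97.9) in nuclei 2, against 31.0% (24.8 to 37.7) in whole sperm; these intervals cover counting error only and are no test of the groups. The edgeR adjusted p-values of these subunits were 1.00 for Pfkm, 0.909 for Pfkl and 0.909 for Pfkp.

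Aldolase splits fructose 1,6-bisphosphate. Aldoa, the aldolase of muscle and red cells, which also has germ cell transcript forms, had 131 CPM in nuclei 1 and 167 CPM in nuclei 2, against 77.9 CPM in whole sperm (log2 fold change 0.93 ± 0.81 SE, edgeR adjusted p = 0.909). Both nuclei libraries were above whole sperm. Aldoart2 (chr12:55565239-55566896, plus strand), an intronless retrogene that encodes a sperm aldolase, behaved differently in the nuclei libraries: it had 3 counts in nuclei 1 and 252 in nuclei 2, compared with 1 in whole sperm. Its unadjusted edgeR p was 0.045 (adjusted p = 0.822), and the ratio to whole sperm was 327 in nuclei 2, with a counting interval of 58.2 to 12970, and 4.96 in nuclei 1, with a counting interval of 0.398 to 260. Aldoart1 (chr4:72850583-72852634, minus strand), the other aldolase retrogene, had 2 and 6 counts in nuclei, against 36 in whole sperm (log2 fold change -2.66 ± 5.47 SE, edgeR adjusted p = 0.988). Together the retrogenes carried 0.255% of aldolase RPKM in nuclei 1 and 15.5% in nuclei 2, compared with 2.97% in whole sperm, so Aldoa carried most of the step in every library. Aldoc, the brain isozyme, had 0 and 0 counts in nuclei, against 5 in whole sperm.

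Triose-phosphate isomerase has 1 gene, Tpi1. It had 18.1 and 27.0 CPM in nuclei, against 32.1 CPM in whole sperm (log2 fold change -0.51 ± 1.42 SE, edgeR adjusted p = 0.999).

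At the glyceraldehyde-3-phosphate dehydrogenase step the germ cell isozyme made up most of the RPKM, and of the counts, in every library. Gapdhs (chr7:30729775-30743681, minus strand) encodes the enzyme bound to the fibrous sheath of the sperm tail. It had 1400 counts in nuclei 1 and 2410 in nuclei 2, compared with 932 in whole sperm, or 267 and 361 CPM in nuclei, against 108 CPM in whole sperm. Both nuclei libraries were above whole sperm, by 2.92-fold on average (log2 fold change 1.55 ± 0.79 SE, edgeR adjusted p = 0.856). Gapdh (chr6:125161715-125166467, minus strand), the somatic enzyme, had 27.8 and 47.9 CPM in nuclei, against 30.6 CPM in whole sperm (log2 fold change 0.31 ± 1.20 SE, edgeR adjusted p = 1.00), and whole sperm lay between the nuclei libraries. Gapdhs made up 87.6% of the step's RPKM in nuclei 1 and 85.2% in nuclei 2, compared with 72.9% in whole sperm. In counts its share was 90.6% (exact 95% interval 89.0 to 92.0) in nuclei 1 and 88.3% (87.0 to 89.5) in nuclei 2, against 77.9% (75.4 to 80.2) in whole sperm.

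Phosphoglycerate kinase makes the first ATP of the pathway. Pgk2 (chr17:40207015-40208640, minus strand) is an intronless copy that takes over in spermatogenesis when the X chromosome, and Pgk1 (chrX:106187100-106203699, plus strand) with it, is silenced. Pgk2 had 29.2 CPM in nuclei 1 and 8.39 CPM in nuclei 2, against 19.3 CPM in whole sperm (log2 fold change -0.04 ± 1.79 SE, edgeR adjusted p = 1.00). Pgk1 had 21.0 and 28.3 CPM in nuclei, against 29.0 CPM in whole sperm. Pgk2 carried 56.6% of the step's RPKM in nuclei 1 and 20.04% in nuclei 2, compared with 37.6% in whole sperm, so the nuclei libraries lay on either side of whole sperm and the groups did not separate.

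Phosphoglycerate mutase shifts the phosphate before the enolase step. Pgam2, the muscle and germ cell isozyme, had 15 and 49 counts in nuclei, against 32 in whole sperm (log2 fold change 0.46 ± 4.71 SE, edgeR adjusted p = 1.00). Pgam1, the brain and general isozyme, had 71 and 12 counts in nuclei, against 311 in whole sperm (log2 fold change -2.23 ± 1.85 SE, edgeR adjusted p = 0.909). The nuclei libraries were both below whole sperm for Pgam1 and on either side of it for Pgam2. The share of Pgam2 in the step's RPKM was 18.2% in nuclei 1 and 79.8% in nuclei 2, compared with 13.6% in whole sperm. In counts its share was 16.1% (exact 95% interval 9.32 to 25.2) in nuclei 1 and 62.0% (50.4 to 72.7) in nuclei 2. In whole sperm it was 9.28% (6.43 to 12.8), so the intervals of nuclei 1 and whole sperm overlap. Bpgm, which makes the 2,3-bisphosphoglycerate of red cells, had 7 and 18 counts in nuclei, against 2 in whole sperm, a ratio of 9.09 with a counting interval of 2.27 to 79.2 over both nuclei libraries, and of 5.78 (1.10 to 57.1) for nuclei 1 alone.

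Enolase was low throughout. Eno4 (chr19:58943425-58971421, plus strand), the sperm enolase bound to the fibrous sheath, had 33 and 60 counts in nuclei, against 97 in whole sperm (log2 fold change -0.55 ± 3.07 SE, edgeR adjusted p = 1.00). Eno1, the general isozyme, had 0 and 0 counts in nuclei, against 16 in whole sperm, which against a floor of 3 counts per library is at least 3.62-fold lower in nuclei. The RPKM table listed Eno1 at 4.36 in nuclei 1 and 2.05 in nuclei 2, compared with 3.84 in whole sperm, so the 2 tables disagree on this gene. The ratio of the tables also varied among other members, as given below with the order of levels. Eno3, the muscle isozyme, had 0 and 14 counts in nuclei, against 47 in whole sperm, and Eno2, the neuronal isozyme, had 0 and 0, against 3. The share of Eno4 therefore depended on the table: it was 15.8% in nuclei 1 and 34.4% in nuclei 2, compared with 34.4% in whole sperm, by RPKM, and 100% and 81.1% in nuclei, against 59.5% in whole sperm, by counts.

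Pyruvate kinase makes the second ATP. Pkm, the muscle and general isozyme, had 106 and 56.6 CPM in nuclei, against 78.6 CPM in whole sperm (log2 fold change 0.05 ± 0.87 SE, edgeR adjusted p = 1.00), and whole sperm lay between the nuclei libraries.

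Lactate dehydrogenase regenerates the NAD that the pathway needs, and at this step the share of the germ cell isozymes was larger in both nuclei libraries than in whole sperm. Ldha (chr7:46841475-46855627, plus strand), the isozyme of muscle and of most dividing cells, had 140 counts in nuclei 1 and 129 in nuclei 2, compared with 1281 in whole sperm, or 26.7 and 19.3 CPM in nuclei, against 148 CPM in whole sperm. It had the smallest adjusted p of the members (log2 fold change -2.68 ± 0.89 SE, edgeR adjusted p = 0.307), and whole sperm was 6.43-fold above the nuclei mean. Ldhb, the heart isozyme, had 9.91 and 20.1 CPM in nuclei, against 50.3 CPM in whole sperm (log2 fold change -1.74 ± 1.36 SE, edgeR adjusted p = 0.909). Both somatic isozymes were lower in both nuclei libraries.

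Ldhc (chr7:46861203-46878142, plus strand), the isozyme of spermatocytes, spermatids and sperm, lies close to Ldha on the same strand. It had 122 counts in nuclei 1 and 221 in nuclei 2, compared with 348 in whole sperm, or 23.3 and 33.1 CPM in nuclei, against 40.2 CPM in whole sperm (log2 fold change -0.51 ± 1.23 SE, edgeR adjusted p = 0.994). Ldhal6b (chr17:5417323-5418767, minus strand), an intronless copy expressed in testis, had 30.1 and 57.4 CPM in nuclei, against 50.1 CPM in whole sperm (log2 fold change -0.19 ± 1.04 SE, edgeR adjusted p = 1.00). The germ cell isozymes together made up 52.9% of the step's RPKM in nuclei 1 and 67.3% in nuclei 2, compared with 29.1% in whole sperm. In counts their share was 59.3% (exact 95% interval 54.7 to 63.8) in nuclei 1 and 69.7% (66.5 to 72.7) in nuclei 2, against 31.3% (29.5 to 33.2) in whole sperm. By RPKM, Ldhc alone made up 30.6% in nuclei 1 and 38.5% in nuclei 2, compared with 16.2% in whole sperm. Ldhal6b, whose counts may include reads of the antisense gene Gm29050, made up 22.3% and 28.9% in nuclei, against 12.9% in whole sperm. Ldha alone made up 34.9% of RPKM in nuclei 1 and 13.6% in nuclei 2, compared with 49.0% in whole sperm. These intervals cover counting error only, and with 1 whole-sperm library the difference in shares has no test over samples.

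Lactate leaves cells through monocarboxylate transporters. Slc16a1 (MCT1), the general transporter, had 30.3 and 19.5 CPM in nuclei, against 38.4 CPM in whole sperm (log2 fold change -0.63 ± 1.304 SE, edgeR adjusted p = 0.989). Slc16a7 (MCT2), the high-affinity transporter found in sperm tails, had 18.1 and 28.6 CPM in nuclei, against 9.92 CPM in whole sperm (log2 fold change 1.23 ± 1.90 SE, edgeR adjusted p = 0.960). The nuclei libraries were below whole sperm for Slc16a1 and above it for Slc16a7. Slc16a7 made up 57.8% of the RPKM of the 3 transporters in nuclei 1 and 63.1% in nuclei 2, compared with 37.7% in whole sperm. Slc16a3 (MCT4), the transporter of glycolytic muscle, had 3 and 15 counts in nuclei, against 0 in whole sperm, which against the floor is at least 4.07-fold higher in nuclei. That bound rests on nuclei 2, since nuclei 1 alone, with 3 counts, gives at least 1.65-fold.

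**Figure D2:**
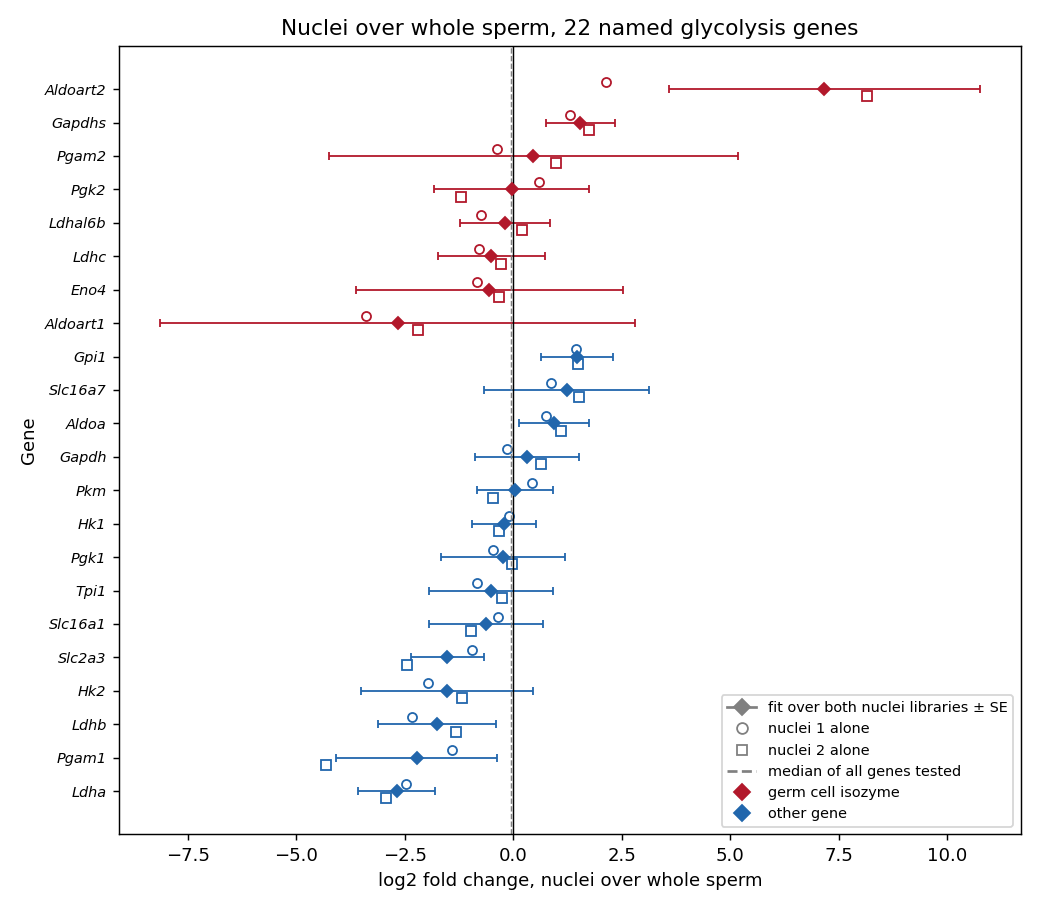
Log2 fold changes, nuclei over whole sperm, of the 22 members named by rule that were tested, with germ cell isozymes in red and the others in blue; diamonds and bars are the fit over both nuclei libraries ± SE, circles and squares are nuclei 1 and nuclei 2 each set against whole sperm, and the dashed line is the median of all genes tested (-0.04). Several genes have both open marks well away from 0, among them Gapdhs and Gpi1 above it. Ldha, Ldhb, Pgam1, Hk2, Aldoart1 and Slc2a3 are among those below it, and the marks of Aldoart1 rest on 2 and 6 counts in nuclei. Both marks of Aldoart2 lie above 0, but that of nuclei 1 rests on 3 counts against 1 in whole sperm. Its ratio has a counting interval of 0.398 to 260. The open marks of Pgk2, Pgam2, Ldhal6b, Gapdh and Pkm lie on both sides of 0.

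**Figure D3:**
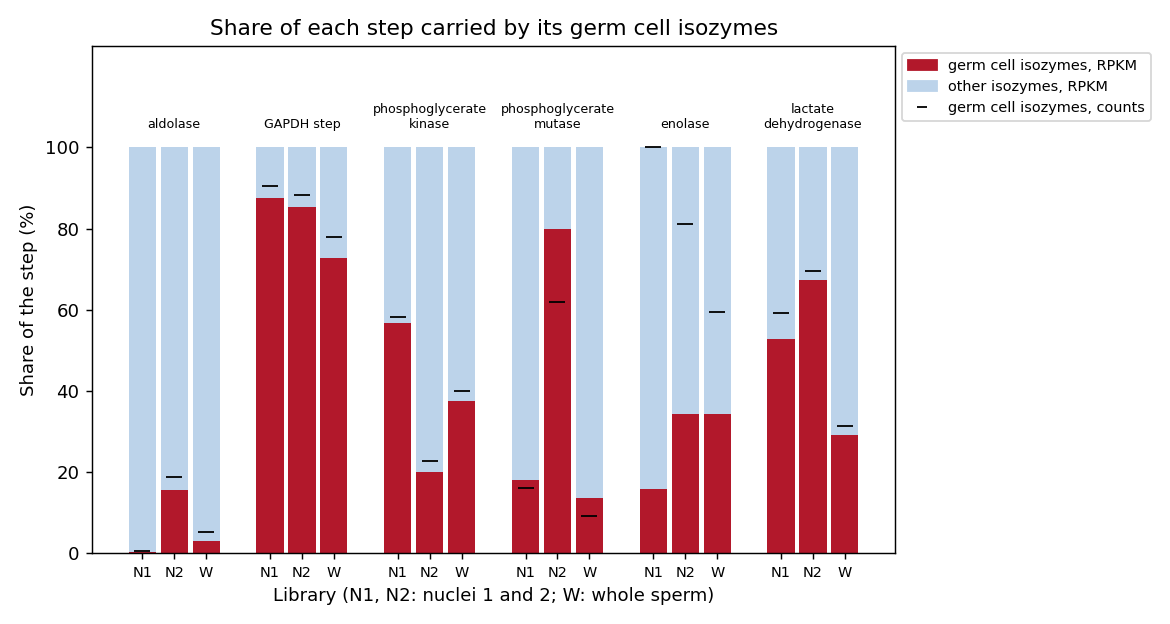
Share in percent of each step's RPKM that its germ cell isozymes (red) and other isozymes (pale blue) made up in nuclei 1 (N1), nuclei 2 (N2) and whole sperm (W), with a black dash at the share of the germ cell isozymes in counts. The red share is larger in both nuclei libraries than in whole sperm for the GAPDH step (87.6% and 85.2%, against 72.9%), lactate dehydrogenase (52.9% and 67.3%, against 29.1%) and phosphoglycerate mutase (18.2% and 79.8%, against 13.6%), and the dash shows that enolase depends on the unit. For phosphoglycerate mutase, nuclei 1 rests on 15 counts of Pgam2, and its counting interval overlaps that of whole sperm.

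Across steps, the germ cell isozymes had a median log2 fold change of -0.12 over the 8 tested, with 5 below 0 and 3 above. The 22 other members tested had a median of -0.57, with 14 below 0 and 8 above, and the median of all genes tested was -0.04. The medians differed by 0.45 on the log2 scale, against a range of -2.66 to 7.17 among the germ cell isozymes and of -6.68 to 6.30 among the others. The median of the others was -0.57 with the members at 0 counts in a group set to their bound, which lie on the same sides of the median as the fitted values. The germ cell isozymes took 0.0344% of counts in nuclei 1 and 0.0517% in nuclei 2, compared with 0.0246% in whole sperm, and the other members took 0.199% and 0.204% in nuclei, against 0.178% in whole sperm. The totals behind these shares include Rn45s, which took less of nuclei 2 than of the other libraries. The shares were not computed without it, so the order of the groups may depend on it. The sum of each set also rested on 1 gene. Without Gapdhs the germ cell isozymes took 0.00886% and 0.0154% in nuclei, against 0.0134% in whole sperm, and without Gpi1 the other members took 0.0990% and 0.0952% in nuclei, against 0.138% in whole sperm, so the order of the groups was lost for the germ cell isozymes and turned round for the other members.

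The order of levels per length differed between fractions. By RPKM the leading members were Gpi1, Gapdhs, Hk1 and Aldoa in both nuclei libraries, whereas in whole sperm they were Hk1, Gpi1, Ldha and Gapdhs. Gpi1, Gapdhs and Hk1 together made up 73.1% of the RPKM of all enzymes among the members in nuclei 1 and 71.2% in nuclei 2, compared with 50.0% in whole sperm. Ldha and Gapdhs stood at nearly the same level in whole sperm, with 47.4 and 47.2 RPKM. In nuclei Ldha had 6.04 and 4.62 RPKM and Gapdhs had 77.0 and 146 RPKM. RPKM had no fixed ratio to counts per kilobase scaled to library size. Over members with at least 20 counts, the median ratio was 0.364 in nuclei 1 and 0.411 in nuclei 2, compared with 0.529 in whole sperm. Single members ran from 0.194 to 0.579, from 0.238 to 0.747 and from 0.339 to 0.783 in these libraries. In nuclei 1 Ldhal6b made up 22.3% of its step by RPKM and 33.5% by counts per kilobase. RPKM shares and levels therefore depend on the unit. Between the nuclei libraries, 17 members of at least 10 CPM differed with an SD of 1.37 on the log2 scale, and 6230 genes of at least 10 CPM with an SD of 1.73.

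Genes linked to the pathway were described from a list of 31 regulators, side branches and transporter partners, of which 23 were tested. None of them was called in either direction by edgeR at an adjusted p under 0.05, 3 had an unadjusted p under 0.05 with a higher level in nuclei and 1 with a lower level, and their median log2 fold change was 0.44. Pfkfb4, the testis form of the enzyme that makes and degrades fructose 2,6-bisphosphate, the activator of phosphofructokinase, had 207 and 300 CPM in nuclei, against 56.8 CPM in whole sperm (log2 fold change 2.16 ± 0.83 SE, edgeR adjusted p = 0.484). Pfkfb3, the inducible form, had 193 and 81.9 CPM in nuclei, against 26.8 CPM in whole sperm (log2 fold change 2.36 ± 0.92 SE, edgeR adjusted p = 0.497). Both nuclei libraries were above whole sperm for these enzymes, and DESeq2 called both higher, with Emb lower, among the 3 genes of the list to which it gave an adjusted p. Adjusted over all features, the DESeq2 p-values of these genes were 0.246 for Pfkfb3, 0.128 for Pfkfb4 and 0.0944 for Emb, so none kept its call. Under that adjustment DESeq2 called another gene of the list, G6pc3, higher in nuclei (log2 fold change 5.30 ± 1.44 SE, DESeq2 adjusted p = 0.0405). Emb, the embigin partner that carries monocarboxylate transporters to the membrane, had 31.8 and 39.5 CPM in nuclei, against 250 CPM in whole sperm (log2 fold change -2.81 ± 0.77 SE, edgeR adjusted p = 0.121). Sord, which makes fructose from sorbitol, had 532 and 651 counts in nuclei, against 345 in whole sperm (edgeR adjusted p = 0.909).

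Pyruvate oxidation in mitochondria is the alternative fate of the end product. Of a list of 16 genes for pyruvate entry and the pyruvate dehydrogenase complex, 15 were found and tested; edgeR called 0 in either direction at an adjusted p under 0.05, 1 had an unadjusted p under 0.05 with a higher level in nuclei and 1 with a lower level, and the median log2 fold change was -0.41. Mpc2, a subunit of the mitochondrial pyruvate carrier, had 35 and 21 counts in nuclei, against 453 in whole sperm (log2 fold change -3.41, edgeR adjusted p = 0.776). Pdha1 and Pdha2 were chosen for mention after their values were seen, because this subunit too has a somatic and a germ cell form. Pdha2, the intronless germ cell form, had 24.6 and 17.4 CPM in nuclei, against 18.1 CPM in whole sperm (log2 fold change 0.21, edgeR adjusted p = 1.00). Pdha1, the X-linked somatic form, had 20 and 8 counts in nuclei, against 352 in whole sperm (log2 fold change -4.01, edgeR adjusted p = 0.865). Pdk4, a kinase that shuts the complex off, had 132 and 60.5 CPM in nuclei, against 18.6 CPM in whole sperm (log2 fold change 2.37, edgeR adjusted p = 0.624). Pdhb, the other subunit of the first enzyme, had 27.5 and 24.6 CPM in nuclei, against 34.6 CPM in whole sperm. Ldhd, which oxidises D-lactate, had 213 and 58 counts in nuclei, against 156 in whole sperm.

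Markers of other cells moved in the same comparison. Of 20 epididymal epithelium markers 16 were tested; 3 fell in nuclei by edgeR at an adjusted p under 0.05 (Crisp1, Spink10 and Cldn8), 0 rose, and their median log2 fold change was -2.26. At an unadjusted p under 0.05, 9 were lower and 0 higher. The count of markers called was 10 with spike-in scaling, which called 3.66% of all annotated genes tested lower. It was 0 when tested genes had a mean of at least 10 CPM, a setting that called 0 annotated genes in either direction. Crisp1, a secreted protein that coats sperm, had 487 and 525 CPM in nuclei, against 6447 CPM in whole sperm (log2 fold change -3.67, edgeR adjusted p = 0.024). Spink10, a protease inhibitor gene, had 43.9 and 29.5 CPM in nuclei, against 361 CPM in whole sperm (edgeR adjusted p = 0.016). Cldn8, a tight junction gene, had 17.2 and 6.74 CPM in nuclei, against 157 CPM in whole sperm (edgeR adjusted p = 0.042). The other abundant markers were Akr1b7 with 816 and 835 CPM in nuclei, against 5556 CPM in whole sperm, Cd52 with 677 and 749 CPM in nuclei, against 1756 CPM in whole sperm, and Serpina1f with 422 and 232 CPM in nuclei, against 1560.5 CPM in whole sperm. Ldha, Ldhb, Slc2a3 and Pgam1 were lower in nuclei in the same libraries, and the part of these cells in their levels was not tested.

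Leukocyte markers summed to 28 counts in nuclei 1 and 93 in nuclei 2, compared with 457 in whole sperm, with Ptprc, the CD45 gene, at 0 and 24 counts in nuclei, against 65 in whole sperm. All 9 leukocyte markers tested had a fold change below 0, with a median log2 fold change of -2.32. Smooth muscle and stroma markers took 0.0171% of counts in nuclei 1 and 0.00982% in nuclei 2, compared with 0.0163% in whole sperm. Myh11, a smooth muscle myosin of that list, had 161 and 270 counts in nuclei, against 82 in whole sperm, and Des had 0 in every library. The list as a whole did not rise with Myh11. Of its 11 genes tested, 6 had a fold change below 0 and 5 above, with a median log2 fold change of -1.66. Erythrocyte markers came to 77 and 10 counts in nuclei, against 214 in whole sperm, with Hba-a1 and Hba-a2 at 0 in every library. Meiotic germ cell markers took 0.0340% and 0.0406% of counts in nuclei, against 0.0235% in whole sperm. Ddx4, a germ cell RNA helicase of that list, had 209 and 148 CPM in nuclei, against 62.1 CPM in whole sperm. The list did not share that direction. Of its 10 genes, both nuclei libraries lay above whole sperm for 2 and below it for 2, and 6 were split. With nuclei 1 alone its median log2 fold change was -0.38, and with nuclei 2 alone 0.74. None of these 4 lists held a gene called by edgeR at an adjusted p under 0.05 in either direction, nor one with an unadjusted p under 0.05. Spermatid and sperm markers had a median log2 fold change of 0.90 with 0 of 13 called by edgeR, 2 with an unadjusted p under 0.05, and 2 called by DESeq2 (Tnp2 and Spem1). Adjusted over all features, the DESeq2 p was 0.0245 for Tnp2 and 0.0990 for Spem1, so the call of Spem1 was lost. Gapdhs was higher in nuclei together with that list, and the part of the list's shift in its level was not tested. Tnp1, which packs spermatid DNA, had 1449 and 801 CPM in nuclei, against 574 CPM in whole sperm, and Tnp2, its partner, had 1031 and 1416 CPM in nuclei, against 304 CPM in whole sperm. Odf2, a component of the outer dense fibres of the tail, had 456 and 652 CPM in nuclei, against 315 CPM in whole sperm. Smcp, a protein of the sperm mitochondrial capsule, had 430.1 and 413 CPM in nuclei, against 606 CPM in whole sperm.

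**Figure D4:**
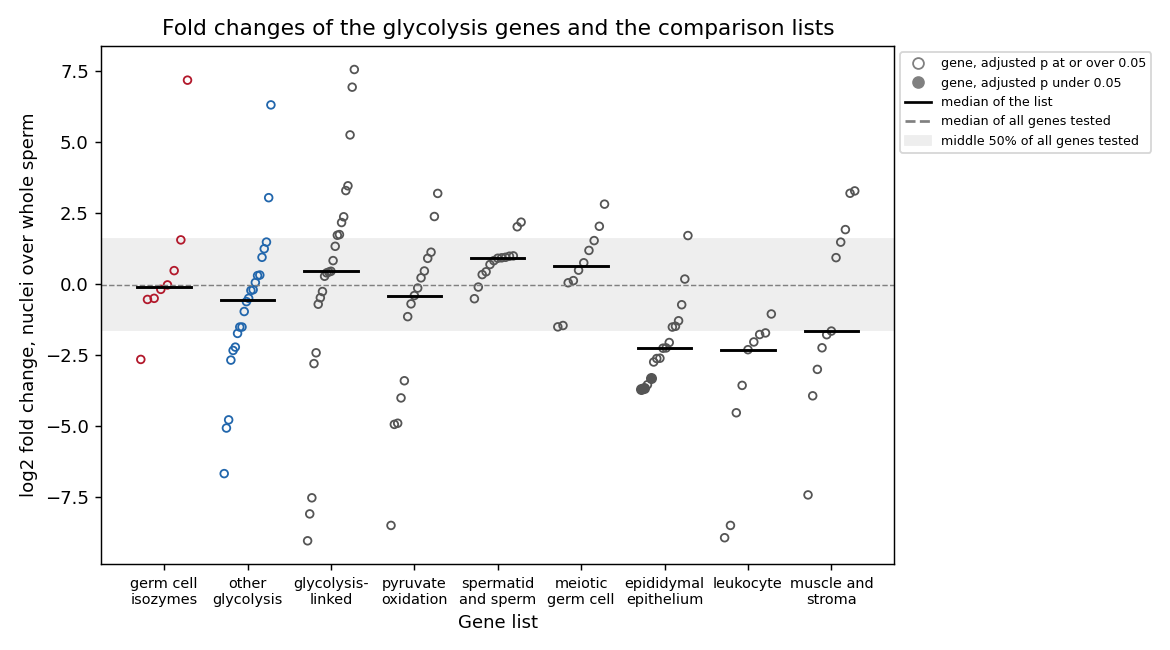
Log2 fold changes, nuclei over whole sperm, of the tested genes of each list, 1 point per gene, filled where the edgeR adjusted p was under 0.05; black lines are list medians, the dashed line and grey band are the median and the middle 50% of all genes tested. The germ cell isozymes (median -0.12) and the other glycolysis genes (median -0.57) lie around the median of all genes (-0.04). The medians of the epididymal (-2.26), leukocyte (-2.32), muscle and stroma (-1.66) and pyruvate oxidation (-0.41) lists lie below it. Those of the spermatid and sperm (0.90), meiotic germ cell (0.61) and glycolysis-linked (0.44) lists lie above it.

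The authors also deposited an adjusted whole-sperm column, made by subtracting the average nuclei count from each whole-sperm count, with negative values set to 0. The germ cell isozymes kept 23.8% of their whole-sperm counts in it and the other members 39.8%, against 40.8% over all genes and regions. The last value includes Rn45s, and the first 2 each rested on 1 gene. Gapdhs kept 0 of 932 counts, so the 487 counts kept by the germ cell isozymes came from the remaining 1115. Gpi1 kept 0 of 3332, so the 5893 counts kept by the other members came from the remaining 11469. Gapdhs, Gpi1, Aldoa, Pgam2, Aldoart2, Bpgm and Slc16a7 kept 0 counts. Ldha kept 89.5%, Ldhb 78.7%, Slc2a3 77.4% and Pgam1 86.8%, while Ldhc kept 50.9%, Ldhal6b 37.8% and Pgk2 37.7%. The subtraction uses counts that were not scaled for depth, so these shares describe that column and add no test.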

How the data were processed

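RNA-seq tables of 2 sperm nuclei preparations and 1 whole-sperm preparation were used, each column holding 2 runs. Per the submitters' processing notes, the tools were HTSeq, DESeq2, bedtools, TopHat2 2.0.12, SAMtools 0.1.19 and Cufflinks 2.1.1, and the build was mm10; roles, order and settings of the tools are not given in the sources. The deposited counts are whole reads per gene or region without normalization. The deposited RPKM values are normalised by the authors per kilobase and library size. The adjusted whole-sperm column was handled as a score: all 25610 rows of that deposited column equal the whole-sperm count less the nuclei mean, within 0.5.

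Counts were tested over 16720 features in edgeR 4.0.16 under R 4.3.3 (quasi-likelihood F-test), with TMM factors, filterByExpr and Benjamini-Hochberg adjustment at 0.05. The fit has 1 residual degree of freedom and a common biological coefficient of variation of 1.296, and whole sperm is assumed to vary like nuclei. The standard error was derived from the F statistic. RPKM values were tested with limma 3.58.1 on log2(RPKM + 0.1); fold changes on that scale understate the change of low genes. DESeq2 was run at 1.42.0. For a share of counts the exact 95% interval is that of Clopper and Pearson. Ratios for groups of 1 to 3 counts have exact conditional binomial intervals. Intervals and the floor of 3 counts per library cover counting error only. Spike-in RNAs, and in whole sperm reads that hit no feature (34.4% of the total) or more than 1 (1.97%), were left out. The scripts were tested on simulated data. Positions, coding regions and shared runs come from GENCODE vM21, with Aldoa present as 2 gene entries there. Coding regions were aligned with Biopython 1.88.

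The members and lists were chosen with earlier results of these data known. Named genes are the 8 germ cell isozymes, other members with a mean of at least 10 CPM, and of each list up to 4 genes with the highest mean and every gene called. Alternatives were scaling by DESeq2 size factors, by library size or by spike-ins, dropping the 10 features with most counts, testing without a filter or with a mean of 10 CPM or more, DESeq2 itself, RPKM with pseudocounts of 0.01, 0.1 and 1, and each nuclei library alone. DESeq2 p-values adjusted over all features were added after seeing the data.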

Additional observations from a re-analysis of the deposited data

Results flagged for a closer look

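The RPKM table held values for Eno1 and for Gm5506 where the count tables held 0. Gm5506 is annotated as Eno1b, an intronless copy of Eno1, and it was picked for mention because of its values. Eno1 was listed at 4.36 RPKM in nuclei 1 and 2.05 RPKM in nuclei 2, with 0 counts in both, against 3.84 RPKM and 16 counts in whole sperm. Gm5506 was listed at 4.69 RPKM in nuclei 1, 2.21 RPKM in nuclei 2 and 3.67 RPKM in whole sperm, with 0 counts in every library. The signal was noted because it appears in the deposited RPKM values and not in the counts that the comparison uses. Of 1978 runs of 50 bases in the Eno1 transcript, 1428 also occur in another annotated gene.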

How the results depend on the processing

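With 3 libraries, only differences large beside a coefficient of variation of 1.296 could be called, and members under about 10 CPM had standard errors of several log2 units. No paired analysis was possible because whole sperm has 1 preparation, so the groups share 1 replicate number. Of 22 named members, 15 kept the direction of their fold change relative to 0 in every alternative run. Relative to the median of all genes, Hk1, Pgk1, Ldhc, Tpi1 and Eno4 of those 15 changed side in some runs, and the rest kept theirs. With nuclei 2 alone these genes lay, in that order, at 0.11, 0.40, 0.16, 0.19 and 0.12 relative to it. In the main fit they lay at -0.16, -0.19, -0.47, -0.46 and -0.50. No named member was called in the main edgeR test, so none could lose a call. The cause of the changes below was not tested. The median of all genes was -0.04, and it was -1.48 with spike-in scaling, -0.67 with RPKM + 0.1, -1.11 with RPKM + 0.01, -0.22 with RPKM + 1, and -1.08 with RPKM + 0.1 and at least 1 RPKM. With nuclei 1 alone it was -0.25, and with nuclei 2 alone -0.44.

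Spike-in scaling called 2 members lower, Ldha (-4.12, or -2.64 relative to that median) and Slc2a3 (-2.95, or -1.47 relative to it), 1 linked gene, 2 pyruvate oxidation genes and 10 epididymal markers. Over all 14397 annotated genes tested, that scaling called 3.66% lower and 0.00695% higher. DESeq2 called 1 member higher, Gpi1, with 3 linked genes, 2 spermatid markers and 6 epididymal markers; adjusted over all features it called 0 members, 1 linked gene (G6pc3, not among those 3) and 1 spermatid marker. Epididymal markers called came to 1 without the 10 most abundant features and 0 with a mean of at least 10 CPM, where main calls were 3.

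The germ cell median was -1.55 with spike-in scaling and -0.91, -0.93, -0.71 and -0.91 on RPKM with + 0.1, + 0.01, + 1 and + 0.1 with at least 1 RPKM. The median of the other members was -2.00, -1.12, -1.25, -0.73 and -1.19 under the same settings, and -0.80 without a filter. Their difference of 0.45 was 0.025 on RPKM + 1. With 1 nuclei library the germ cell median ran from -0.55 to -0.041, that of the others from -0.89 to -0.73. Relative to the median of all genes, the germ cell median was -0.30 with nuclei 1 alone and 0.39 with nuclei 2 alone, so its side changed with the library. That of the others was -0.64 with nuclei 1 alone and -0.29 with nuclei 2 alone. By counts per kilobase the Gapdhs share in nuclei was 89.8% where RPKM gave 86.4%, and that of Eno4 was 86.2% where RPKM gave 25.1%.

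Reversed directions were seen for Pgk2 (main -0.04), which was 0.013 with DESeq2 size factors, 0.0131 with DESeq2 under either adjustment, 0.042 without the 10 most abundant features and from -1.20 to 0.60 over the fits with 1 nuclei library. Pgam2 was -0.97 with spike-in scaling, -0.083 on RPKM + 0.1 with or without the minimum, -0.11 on RPKM + 0.01 and from -0.37 to 0.99 with 1 nuclei library. Ldhal6b was from -0.73 to 0.20 with 1 nuclei library. Spike-in scaling gave Aldoa -0.50, Gapdh -1.13, Pkm -1.38 and Slc16a7 -0.20. Gapdh was -0.083 on RPKM + 0.1 with or without the minimum, -0.084 on RPKM + 0.01, -0.073 on RPKM + 1 and from -0.14 to 0.65 with 1 nuclei library. Pkm was -0.054 with library size alone, -0.0006 with a mean of at least 10 CPM, -0.68 on RPKM + 0.1 with or without the minimum and on RPKM + 0.01, -0.64 on RPKM + 1 and from -0.47 to 0.43 with 1 nuclei library.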
